A study of Mus musculus with 8 samples.

Results

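The lysosomal genes described here are 46 mouse genes that encode 11 proteases, 13 glycosidases and sulfatases, 7 lipid hydrolases and their cofactors, 5 membrane proteins, 8 components of the proton pump and 2 transcription factors. They were listed by symbol with earlier results of these data known, and all 46 were found among the 24421 gene symbols counted in each library. All 46 passed the filter on low counts, which left 13821 genes for testing.

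RNA was measured by sequencing of primary mouse macrophages in 8 libraries: 3 from wild-type cells (WT), 3 labelled LysM-DKO and 2 labelled ABCG1KO, with a normal diet stated for each. The series' design text speaks of an epsin double knockout, which was taken to be the LysM-DKO group; LysM is the myeloid promoter commonly used to drive Cre, and the ABCG1KO group lacks the cholesterol exporter ABCG1. The labels do not give the tissue the macrophages came from, the age or sex of the mice, whether a library is 1 animal or a pool, or whether the libraries of a group came from separate animals, so p-values measure the spread between these libraries only. In such bulk RNA, fewer cells of a type and less RNA per cell cannot be told apart.

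Lysosomes are acidic organelles in which macrophages break down what they engulf. The vacuolar proton pump acidifies them: its V1 head splits ATP and its V0 ring carries protons across the membrane. The low pH activates cathepsins and the enzymes that cut glycans and lipids. The transcription factors TFEB and TFE3 bind a short E-box, CACGTG, within the CLEAR element (core TCACGTGA) that lies upstream of many lysosomal genes.

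The stretches of promoter below show how differently that E-box is placed among the members. Promoters from the RefSeq table (build GRCm38.p6, 250 bases before to 50 after each start) were found for 39 of the 46 genes, with 46 promoters in all. CACGTG stood in a promoter of 14 of these 39 genes. By promoter the share was 30.4%, against 7.15% of the 32851 promoters in the table. The longer core TCACGTGA, which holds CACGTG inside it, stood in 15.2% of the members' promoters and in 0.974% of all. Both motifs read the same on both strands. The 4 sequences are the 250 bases before the start, 5′ to 3′ on the gene's strand, with each CACGTG in capitals. Gla, which fell in ABCG1KO, holds the motif 2 times on the minus strand of chrX:134601006-134601255. Ctsd, the most abundant protease, holds it 2 times on the minus strand of chr7:142387828-142388077. Lamp1 holds it 4 times on the plus strand of chr8:13158911-13159160, and Ctsk, which had the largest fall in ABCG1KO, holds none on the plus strand of chr3:95498960-95499209.
Gla: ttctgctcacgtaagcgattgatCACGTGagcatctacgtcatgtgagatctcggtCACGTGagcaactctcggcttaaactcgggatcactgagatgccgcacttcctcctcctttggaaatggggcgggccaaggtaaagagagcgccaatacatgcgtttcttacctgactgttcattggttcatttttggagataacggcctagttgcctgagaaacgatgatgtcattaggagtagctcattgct
Ctsd: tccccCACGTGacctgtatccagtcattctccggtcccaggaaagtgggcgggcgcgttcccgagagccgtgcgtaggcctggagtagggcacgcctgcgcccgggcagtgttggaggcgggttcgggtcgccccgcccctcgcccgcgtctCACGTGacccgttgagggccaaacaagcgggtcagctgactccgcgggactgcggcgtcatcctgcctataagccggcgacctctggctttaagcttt
Lamp1: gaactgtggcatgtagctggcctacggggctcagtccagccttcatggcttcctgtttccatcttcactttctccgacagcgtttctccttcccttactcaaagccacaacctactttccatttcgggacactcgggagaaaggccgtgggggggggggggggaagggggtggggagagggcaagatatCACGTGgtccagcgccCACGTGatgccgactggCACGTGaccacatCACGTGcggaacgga
Ctsk: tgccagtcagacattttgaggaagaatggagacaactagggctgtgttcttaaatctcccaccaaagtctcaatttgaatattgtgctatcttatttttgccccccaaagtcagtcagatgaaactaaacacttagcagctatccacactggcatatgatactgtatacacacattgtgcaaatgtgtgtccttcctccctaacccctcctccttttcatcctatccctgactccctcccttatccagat
A match is a description of the letters and not of binding, and the absence of one covers this window only.

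Before the results, the labels were checked. Abcg1 was at 405, 404 and 345 CPM (counts per 1000000 counts of the library, scaled with TMM factors) in WT and at 60.4 and 73.4 CPM in ABCG1KO, and it fell with a log2 fold change of -2.52 (SE 0.37, adjusted p = 0.00414, edgeR). Epn1 was at 230, 203 and 191 CPM in WT, 169, 183 and 155 CPM in LysM-DKO and 182 and 155 CPM in ABCG1KO. Its level in LysM-DKO was 81.1% of WT (adjusted p = 0.43), and Epn2 was at 8.40 ± 4.20 CPM there against 7.34 ± 2.08 in WT (SD, n = 3 each). Counts per gene do not show which exons were read, so these levels do not check the label LysM-DKO, and directions for that group below are for the libraries labelled so. The libraries held 29567615 to 41888516 counts in genes. Reads assigned to no annotated gene made up 13.8% and 10.2% of the counted reads in ABCG1KO and 4.26% to 6.07% in the other 6 libraries. Reads without a unique position made up 6.93% and 6.74% against 2.65% to 3.01%. This difference in read assignment cannot be told apart from genotype in ABCG1KO. The 8 markers of macrophages were present in every group and summed to 18000 to 21200 CPM in WT, 11000 to 13100 in LysM-DKO and 18400 to 22200 in ABCG1KO. Most of the sum was Lyz2, the gene of lysozyme M for which LysM stands, at 13000, 15150 and 15710 CPM in WT, 6177, 8105 and 6266 in LysM-DKO and 14410 and 11240 in ABCG1KO. The other 7 macrophage markers summed to 5040 to 5540 CPM in WT, an overlapping 4820 to 5380 in LysM-DKO and a higher 7150 to 7830 in ABCG1KO. Of these, Csf1r, Adgre1, Itgam and Cd14 lay above every WT library in ABCG1KO, and Mertk and Fcgr1 overlapped WT. Cd68 went the other way, at 917 and 1369 CPM in ABCG1KO against 2662, 2125 and 2343 in WT.

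The 46 genes took a large share of all RNA counted. In WT they made up 12.8%, 12% and 11.4% of the counts in genes. In LysM-DKO the shares were 11.2%, 10.6% and 9.63%, and in ABCG1KO 7.52% and 9.72%. Every LysM-DKO and ABCG1KO library was thus below every WT library. Psap, Ctsd and Ctsb alone held 7.41% to 8.51% of the counts in WT and 4.62% and 6.43% in ABCG1KO. Without these 3 genes, the others summed to 44900 ± 2177 CPM in WT (SD, n = 3), 33390 ± 2097 in LysM-DKO (n = 3) and 28520 ± 2225 in ABCG1KO (n = 2).

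Levels per length of exon (CPM per kilobase, on exon lengths from GENCODE M21) put the members in an order that spans more than 3 decades in WT. Psap, whose product is cut into the saposins that help degrade sphingolipids, came first at 13258 ± 1402 CPM per kb and ranked 1 of 23334 genes in all 3 WT libraries. Ctsd, an aspartic protease, followed at 11985 ± 937 CPM per kb and ranked 3 to 4 in the WT libraries, below Psap in each. Ctss, Ctsb and Ctsz, which are cysteine cathepsins, came next at 6044 ± 911, 3503 ± 239 and 1733 ± 243 CPM per kb. The lysosomal membrane protein gene Lamp1 was at 1156 ± 109 CPM per kb and did not differ beyond its spread from Lgmn (legumain, 1055 ± 189) or Ctsl (966 ± 348). At the other end, Mcoln1, a calcium channel, was at 11.7 ± 0.78 CPM per kb, and Manba and Arsb were both at 8.40 CPM per kb with SDs of 0.37 and 1.77. The first 6 places were held by the same genes in ABCG1KO as in WT. Atp6v0d2 was in place 11 of the 46 in WT and 25 in ABCG1KO, and Ctsk in 15 and 39. In LysM-DKO the moves were smaller, the widest being Gm2a from place 17 to 26 and Glb1 from 31 to 38.

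**Figure D1:**
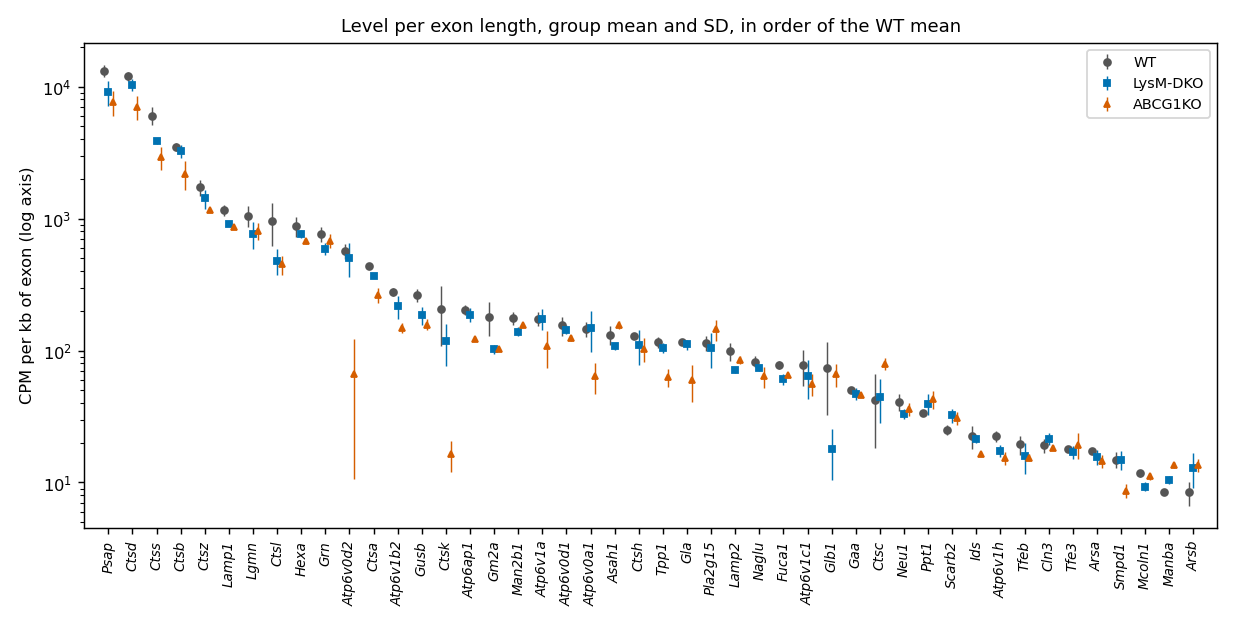
Level of each of the 46 genes per kilobase of exon (vertical log axis, CPM per kb) in order of the WT mean, as group mean with SD (WT and LysM-DKO n = 3, ABCG1KO n = 2). Psap and Ctsd lead in every group, and the ABCG1KO points of Atp6v0d2 (66.0 CPM per kb) and Ctsk (16.3) lie far below the WT points (564 and 208).

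Replicates of a group were close for most members. The highest library was a median of 1.25 times the lowest within WT and within LysM-DKO, and 1.18 times within ABCG1KO. In WT the widest ranges were those of Ctsc (3.42 times), Glb1 (3.24 times) and Ctsk (2.8 times). In ABCG1KO, Atp6v0d2 differed 3.93-fold between the 2 libraries, more than any other member there, and Gla came next at 1.58-fold.

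Summed by role, the proton pump genes were at 6947, 5979 and 6786 CPM in WT, 7366, 4905 and 5435 in LysM-DKO and 2655 and 3525 in ABCG1KO. The ABCG1KO libraries lay below all others, and WT and LysM-DKO overlapped. The proteases summed to 72590 ± 4541 CPM in WT, with 59530 ± 5570 in LysM-DKO and with 42650 ± 8323 in ABCG1KO. The lipid hydrolases and cofactors, most of them Psap, summed to 40720 ± 4366, 28310 ± 5101 and 25020 ± 4389 CPM in the same order of groups. Glycosidases and sulfatases were at 6110 ± 239 CPM in WT, with 4961 ± 274 in LysM-DKO and with 4768 ± 236 in ABCG1KO, and the membrane proteins at 4396 ± 244, 3501 ± 126 and 3511 ± 23.1 CPM. In these 4 roles other than the pump, every library of both other groups was below every WT library.

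**Figure D2:**
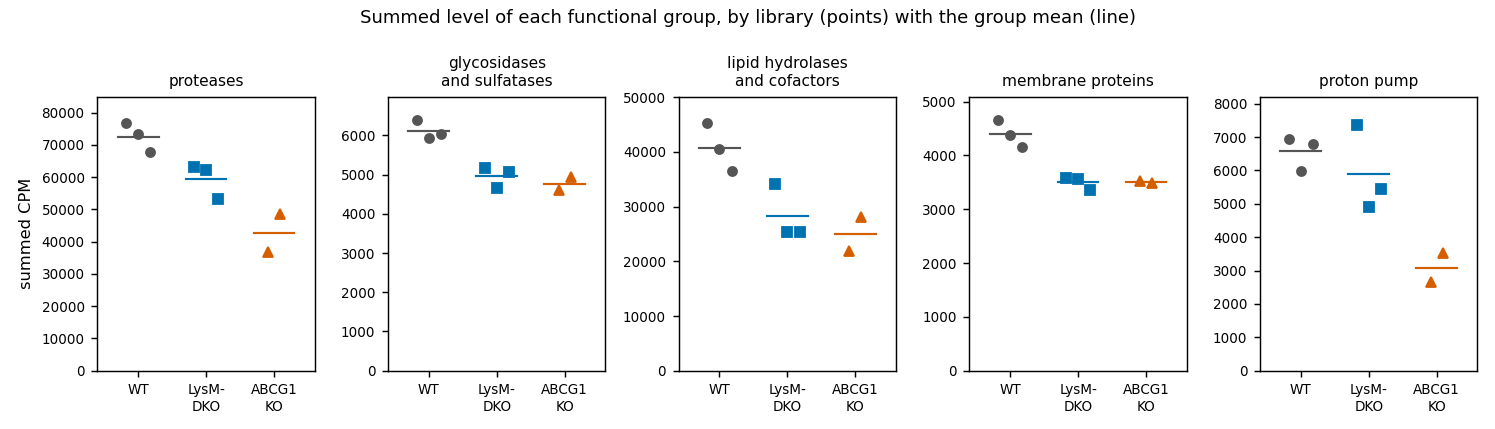
Summed CPM of the members of 5 roles in each library (points, axes from 0) with the group mean as a line. The pump is lowest in ABCG1KO (2655 and 3525 CPM), where WT holds 5979 to 6947 CPM. With TMM scaling, as drawn, the other 4 roles are lower in both LysM-DKO and ABCG1KO than in any WT library.

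In ABCG1KO against WT, 13 of the 46 members changed at an adjusted p under 0.05: 12 fell and 1 rose. Of all genes tested, 16% changed, 8.83% lower and 7.21% higher. The share among the members was 28.3%, in a list made with earlier results of these data known. Their median log2 fold change was -0.38, where the median of all genes was 0.01, and 38 of the 46 were below 0. The libraries of both groups did not overlap for 33 members, 28 lower and 5 higher in ABCG1KO. That is 71.7% of them against 48.2% of all genes, of which 24.2% lay lower and 23.9% higher. At an unadjusted p under 0.05 stood 24 members and 4355 of the 13821 genes. The fall was spread unevenly over the roles: 5 of 8 pump genes, 4 of 11 proteases, 2 of 13 glycosidases and sulfatases and 1 of 7 lipid hydrolases fell, and none of the 5 membrane proteins or 2 transcription factors was called.

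**Figure D3:**
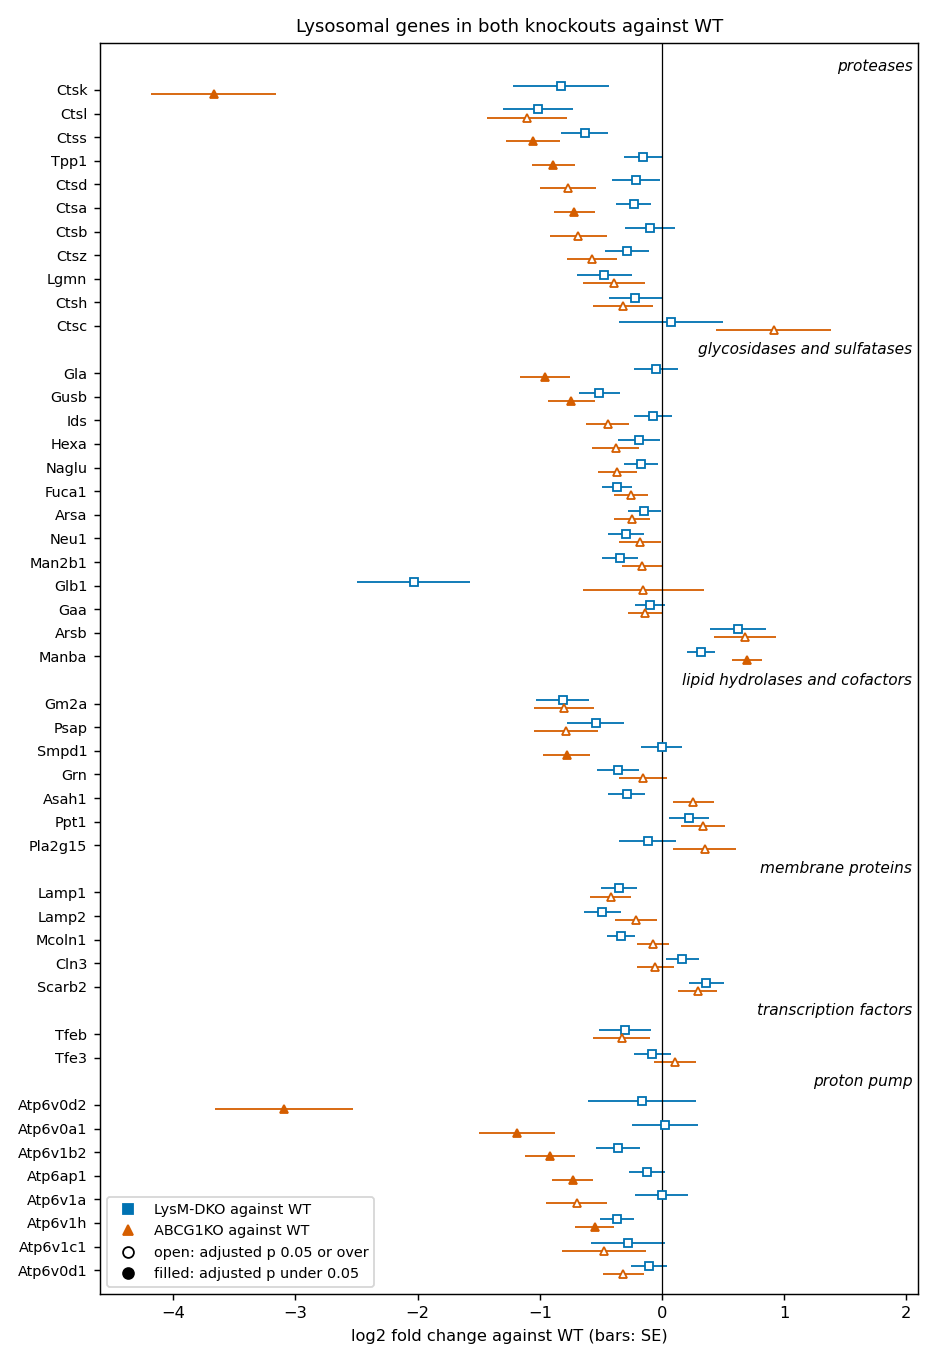
Log2 fold change against WT (horizontal axis, bars are SE) of all 46 members by role, in LysM-DKO (squares) and ABCG1KO (triangles), which share the 3 WT libraries; filled symbols have an adjusted p under 0.05. All filled symbols belong to ABCG1KO: 12 lie below 0, with Ctsk at -3.67 and Atp6v0d2 at -3.10, and Manba lies above 0 at 0.70.

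Ctsk (chr3:95499210-95509387, plus strand), the collagen-cutting cathepsin best known from osteoclasts, had the largest fall. It was at 309, 167 and 469 CPM in WT, 247, 125 and 161 in LysM-DKO and 20.0 and 29.4 in ABCG1KO. Both ABCG1KO libraries were thus far below the lowest of the other 6, whereas WT and LysM-DKO overlapped. The log2 fold change in ABCG1KO was -3.67 (SE 0.51, adjusted p = 0.0037), a level 7.85% of WT. Ctss, the cathepsin that trims the invariant chain of MHC class II, was at 9496, 7030 and 8096 CPM in WT, 5424, 4977 and 5468 in LysM-DKO and 3392 and 4504 in ABCG1KO. It fell by 1.06 on the log2 scale in ABCG1KO (SE 0.22, adjusted p = 0.017), and the LysM-DKO libraries lay between the other groups without overlap. Tpp1, which removes tripeptides from the ends of proteins, was at 647, 619 and 535 CPM in WT, 581, 548 and 487 in LysM-DKO and 287 and 361 in ABCG1KO. Its log2 fold change was -0.89 (SE 0.18, adjusted p = 0.0141), with WT and LysM-DKO overlapping. Ctsa, a carboxypeptidase that also protects the sialidase and β-galactosidase, was at 2161, 1988 and 1998 CPM in WT, 1804, 1675 and 1753 in LysM-DKO and 1134 and 1359 in ABCG1KO. It fell by 0.72 (SE 0.17, adjusted p = 0.0236), again with LysM-DKO between the other groups.

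The 7 proteases that were not called in ABCG1KO included the most abundant ones. Ctsd was at 30696, 27219 and 26617 CPM in WT, 25942, 25690 and 21364 in LysM-DKO and 14103 and 18961 in ABCG1KO. The ABCG1KO libraries were the lowest, yet the log2 fold change of -0.77 (95% interval -1.29 to -0.25) missed the threshold at an adjusted p of 0.0542. Ctsl was similarly close at -1.10 (interval -1.86 to -0.35, adjusted p = 0.0553). Ctsb and Ctsz had log2 fold changes of -0.69 and -0.58 (adjusted p = 0.0831 and 0.0933), with no overlap of the groups. Ctsc, which activates granule proteases, was the one protease above 0, at 497 and 427 CPM in ABCG1KO against 230, 391 and 114 in WT (adjusted p = 0.226).

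Of the enzymes that cut sugars, 2 fell and 1 rose. Gla (α-galactosidase A, on the X chromosome at chrX:134588169-134601005, minus strand) was at 393, 366 and 368 CPM in WT, 398, 336 and 357 in LysM-DKO and 150 and 237 in ABCG1KO. Its log2 fold change in ABCG1KO was -0.96 (SE 0.21, adjusted p = 0.0192), and the levels in WT and LysM-DKO overlapped. Gusb (β-glucuronidase) was at 1350, 1125 and 1119 CPM in WT, 906, 694 and 916 in LysM-DKO and 669 and 763 in ABCG1KO. It fell by 0.74 (SE 0.19, adjusted p = 0.0357), and both LysM-DKO and ABCG1KO lay wholly below WT. Manba (β-mannosidase, chr3:135485611-135571404, plus strand) went the other way, at 59.2, 55.7 and 60.7 CPM in WT, 69.3, 79.6 and 70.2 in LysM-DKO and 98.6 and 91.1 in ABCG1KO. The 3 groups did not overlap, and in ABCG1KO it rose by 0.70 (SE 0.12, adjusted p = 0.00869). Arsb, the arylsulfatase that acts on dermatan sulfate, also lay wholly above WT, at 87.6 and 75.0 CPM against 46.7, 42.6 and 62.8, with an adjusted p of 0.107. The other 9 genes of this role had log2 fold changes from -0.44 (Ids) to -0.14 (Gaa) in ABCG1KO and were not called. The most abundant of them, Hexa, which acts in ganglioside breakdown, was at 1981, 1404 and 1852 CPM in WT, 1655, 1473 and 1463 in LysM-DKO and 1303 and 1382 in ABCG1KO, with an adjusted p of 0.222.

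Among lipid hydrolases and their cofactors, Smpd1, the acid sphingomyelinase, was called. It was at 57.6, 45.0 and 46.6 CPM in WT, 57.5, 50.6 and 40.9 in LysM-DKO and 26.4 and 31.5 in ABCG1KO. The ABCG1KO libraries lay below all others, and the log2 fold change was -0.78 (SE 0.19, adjusted p = 0.0295). Psap was at 40427, 35942 and 32769 CPM in WT, 30971, 21863 and 22032 in LysM-DKO and 17831 and 24316 in ABCG1KO. Both other groups were below WT without overlap, but neither difference passed the threshold (adjusted p = 0.0777 in ABCG1KO). Gm2a, the activator of GM2 ganglioside breakdown, had a log2 fold change of -0.80 in ABCG1KO (adjusted p = 0.0591). Asah1 (acid ceramidase), Ppt1 (a thioesterase for palmitoylated proteins) and Pla2g15 (a phospholipase) had values of 0.26, 0.34 and 0.35, none of them called.

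The membrane proteins and the transcription factors showed small differences. Lamp1 was at 3428, 2909 and 2942 CPM in WT, 2521, 2440 and 2328 in LysM-DKO and 2303 and 2322 in ABCG1KO. The WT libraries were the highest, and the log2 fold change in ABCG1KO of -0.42 (95% interval -0.80 to -0.04) had an adjusted p of 0.126. Lamp2, Mcoln1 and Cln3 were between -0.21 and -0.05, and Scarb2, a scavenger receptor family member of the lysosomal membrane, was at 0.29. Tfeb was at 125, 89.8 and 116 CPM in WT, 114, 66.4 and 87.1 in LysM-DKO and 91.1 and 83.9 in ABCG1KO, with overlapping groups. Tfe3 was at 175, 160 and 163 CPM in WT, 175, 156 and 140 in LysM-DKO and 207 and 151 in ABCG1KO. For Tfeb the 95% interval in ABCG1KO ran from -0.87 to 0.21 and for Tfe3 from -0.28 to 0.50. Changes in the RNA of either factor within these ranges are not excluded. Of the 12 members that fell, 9 had a promoter in the table and 2 of these, Ctsa and Gla, held CACGTG; of the 33 members not called, 29 had a promoter and 12 held the motif.

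**Figure D4:**
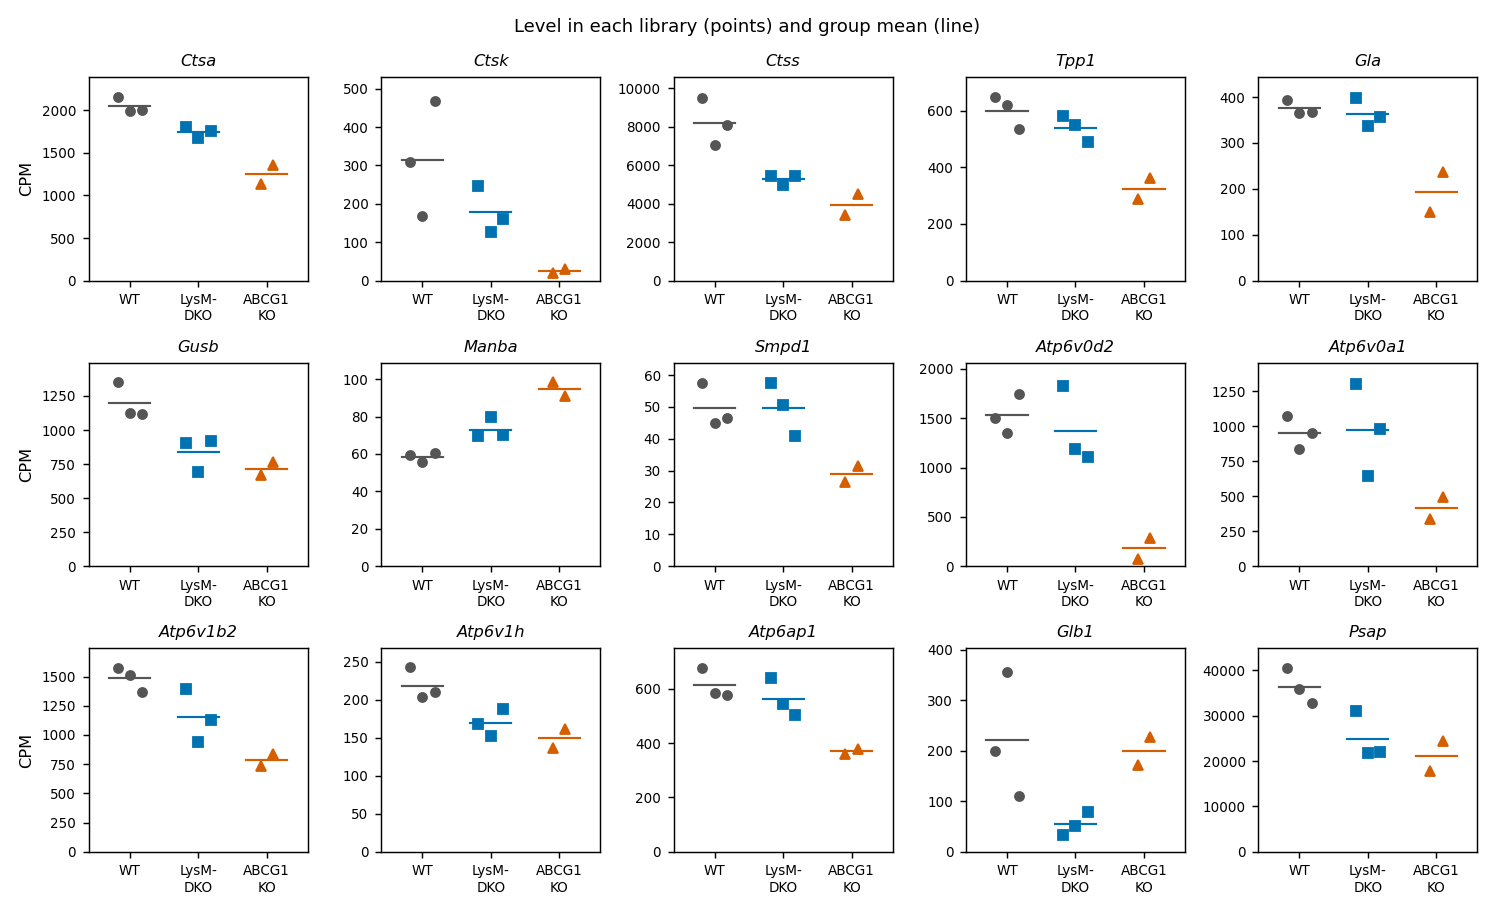
CPM in each library (points, axes from 0) and group mean (line) for the 13 members called in ABCG1KO against WT, with Glb1 and Psap. Ctsk and Atp6v0d2 stand far below WT in both ABCG1KO libraries, Manba is highest in ABCG1KO, and Glb1 is lowest in LysM-DKO.

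The proton pump held the second largest fall. Atp6v0d2 (chr4:19876838-19922566, minus strand) encodes an alternative d subunit of the V0 ring, known from osteoclasts and some macrophages. It was at 1500, 1351 and 1748 CPM in WT, 1822, 1187 and 1108 in LysM-DKO and 72.7 and 286 in ABCG1KO. Both ABCG1KO libraries were far below the other 6, although they differed widely from each other. The log2 fold change was -3.10 (SE 0.57, adjusted p = 0.0107), a level 11.7% of WT. Its ubiquitous counterpart Atp6v0d1 was at 330, 242 and 264 CPM in WT, 280, 243 and 252 in LysM-DKO and 231 and 216 in ABCG1KO, with a log2 fold change of -0.32 (adjusted p = 0.239). Per kilobase, Atp6v0d2 was 3.00, 3.69 and 4.38 times Atp6v0d1 in WT and 4.29, 3.22 and 2.91 times in LysM-DKO. In ABCG1KO the ratio was 0.208 and 0.872, so that Atp6v0d1 was the more abundant of the pair in those libraries alone.

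Of the other V0 members, Atp6v0a1, whose product forms part of the proton path, was at 1073, 837 and 949 CPM in WT, 1298, 640 and 977 in LysM-DKO and 340 and 497 in ABCG1KO. It fell by 1.19 in ABCG1KO (SE 0.31, adjusted p = 0.0375). In the V1 head, Atp6v1b2, a B subunit of the ATP-splitting ring, was at 1571, 1516 and 1364 CPM in WT, 1392, 936 and 1132 in LysM-DKO and 735 and 836 in ABCG1KO. It fell by 0.92 (SE 0.21, adjusted p = 0.0217), and the ABCG1KO libraries were below all others for both genes. Atp6v1h, a regulatory subunit, was at 242, 203 and 210 CPM in WT, 167, 152 and 188 in LysM-DKO and 137 and 161 in ABCG1KO; its fall of 0.55 only just passed (adjusted p = 0.0499). Atp6ap1, an accessory protein that helps assemble the pump, was at 679, 587 and 577 CPM in WT, 641, 544 and 506 in LysM-DKO and 360 and 380 in ABCG1KO, a fall of 0.73 (SE 0.17, adjusted p = 0.0227). Atp6v1a, the catalytic A subunit, was at 508 and 792 CPM in ABCG1KO against 1009, 961 and 1195 in WT, with no overlap, and was not called (adjusted p = 0.0924). Atp6v1c1, which links head and stalk, overlapped between the groups (log2 fold change -0.47, adjusted p = 0.387).

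With the subunit genes outside the members added, 20 pump genes were tested. In ABCG1KO against WT 8 fell and none rose, where 8.83% of all genes fell and 7.21% rose. The falls were 3 of 9 in V0, 4 of 9 in V1 and 1 of 2 accessory genes. The median log2 fold change over the 20 was -0.66. Beside the members, the falls were those of Tcirg1 (the a3 subunit, -0.73), Atp6v1f (-0.62) and Atp6v1g1 (-1.30). Some sequence of Atp6v1g1 also occurs elsewhere: 19.1% of its 50-base words are shared with other genes, so its count is less certain. In LysM-DKO against WT none of the 20 was called by edgeR, and 17 had log2 fold changes below 0.

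**Figure D5:**
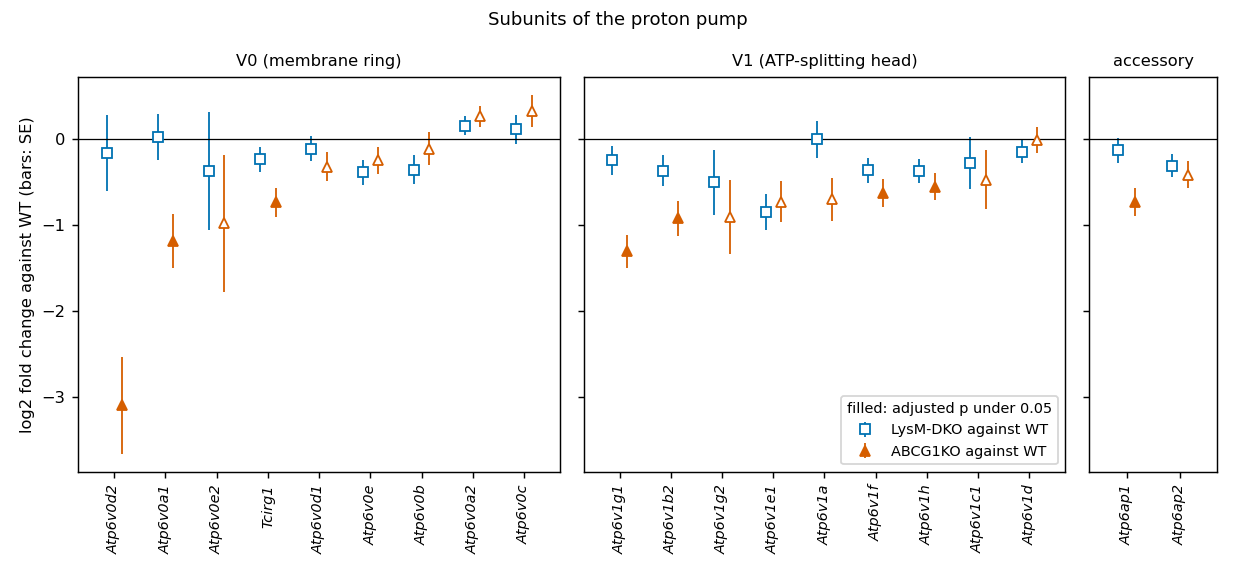
Log2 fold change against WT (vertical axis, bars are SE) of 20 proton pump genes by sector, in LysM-DKO (squares) and ABCG1KO (triangles); filled symbols have an adjusted p under 0.05. In ABCG1KO 8 genes lie below 0 with filled symbols, Atp6v0d2 lowest at -3.10, and none of the LysM-DKO symbols is filled.

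The calls in ABCG1KO rested on few libraries. Without ABCG1KO replicate 1, 2 members stayed called, Atp6v0d2 and Ctsk, and without ABCG1KO replicate 2 there were 8; in both cases the remaining library was assumed to vary like the other groups. Without WT replicate 1 and without WT replicate 2, 5 members were called each time. Fewer of all genes were called too whenever a library was left out, with the range in the closing section. These member counts alone therefore do not show a change in the members' share. Ctsk and Atp6v0d2 passed in all 16 alternative settings, with log2 fold changes from -3.98 to -3.27 and from -4.40 to -2.43, whereas Atp6v1h lost its call in 14 and Gusb in 9. With library sizes alone and no scaling factors, 9 members were called, 3 higher (Arsb, Manba and Scarb2) and 6 lower, against 1 and 12 with TMM. That scaling moved the median of all genes to 0.25 and the members' median to -0.15, a distance of -0.39 from all genes, where TMM gave -0.40. Over all genes it gave 2074 higher and 856 lower, against 996 and 1220 with TMM.

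Other measurements moved with ABCG1KO beside these genes. The 9 markers of resident peritoneal macrophages summed to 562 to 871 CPM in WT, 442 to 734 in LysM-DKO and 2540 and 1776 in ABCG1KO. The 6 monocyte markers summed to 4.97 to 69.3, 18.9 to 120 and 231 to 417 CPM in that order, and the 7 dendritic cell markers to 1180 to 2380, 437 to 959 and 121 to 319 CPM. Nearly all of the dendritic cell sum was Itgax, an integrin that macrophages also make, and the other 6 summed to 1.60 to 8.64 CPM in WT, 1.31 to 3.00 in LysM-DKO and 12.5 to 12.8 in ABCG1KO. Among these, Zbtb46 was at 5.21 and 2.62 CPM and Cd209a at 5.21 and 9.55 CPM in ABCG1KO, each above every WT library. Ccr7 was above them too, at 1.41 and 0.377 CPM. Clec9a lay below every WT library, at 0.314 and 0.212 CPM against 0.674, 5.96 and 0.751, and Flt3 and Xcr1 overlapped WT. Xcr1 held at most 3 counts in every ABCG1KO library, and Flt3 and Ccr7 did so in LysM-DKO. Because Ctsk and Atp6v0d2 are also osteoclast genes, 7 osteoclast markers were listed: they summed to 338 to 551 CPM in WT, 154 to 307 in LysM-DKO and 164 to 212 in ABCG1KO, and Calcr and Oscar held at most 3 counts in every library of each group. Much of that difference was Acp5, which is also one of the other lysosomal genes, at 219, 330 and 297 CPM in WT and 43.2 and 80.2 in ABCG1KO, and the other 6 osteoclast markers summed to 118 to 222 CPM in WT, 98.6 to 128 in LysM-DKO and 121 to 132 in ABCG1KO. The 8 mast cell markers summed to 0.233 to 5.36 CPM in WT, 0.194 to 0.756 in LysM-DKO and 52.9 and 9.20 in ABCG1KO. The 6 fibroblast markers spanned 755 to 913, 678 to 1660, and 160 and 1185 CPM in that order. The part of these cell types in the results was not tested.

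The libraries also differed in sex-linked transcripts, which touches the 5 X-linked members Gla, Ids, Lamp2, Tfe3 and Atp6ap1. Xist was at 79.1 to 200 CPM in WT and at 265 and 254 CPM in LysM-DKO replicates 2 and 3, which held at most 2 counts of the Y-linked Ddx3y. Ddx3y was at 81.6 CPM in LysM-DKO replicate 1 and at 94.8 and 92.6 CPM in ABCG1KO, with at most 2 counts of Xist. Sex and genotype therefore cannot be told apart in ABCG1KO against WT. LysM-DKO replicate 1 had the Ddx3y and Xist pattern of ABCG1KO. It held Ctsk at 247 CPM, Atp6v0d2 at 1822 CPM, Gla at 398 CPM and Atp6ap1 at 641 CPM, all above both ABCG1KO libraries. Lamp2 was at 652 CPM there, below both (857 and 774 CPM). Ids was at 113 CPM there, above both (83.7 and 85.1 CPM), and Tfe3 at 175 CPM lay between them (207 and 151 CPM). As 1 library of another genotype it does not separate sex from genotype, and the part of sex was not tested.

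In LysM-DKO against WT, none of the 46 members was called by edgeR's quasi-likelihood test, and 5 of 13821 genes (0.0362%) were called in all, 0.0145% lower. At an unadjusted p under 0.05 stood 15 members and 1611 of all genes, and DESeq2 called 4 members, Ctsl, Ctss, Glb1 and Gm2a, all lower, among 278 genes. The median log2 fold change of the members was -0.22, where that of all genes was 0.02, and 39 members were below 0. With library sizes alone the members' median was -0.07 and that of all genes 0.17, a distance of -0.24 under either scaling; 28 members were then below 0. The libraries did not overlap for 17 members (37% of them, against 21% of all genes): 15 lay lower in LysM-DKO, as did 9.98% of all genes, and 2, Manba and Scarb2, higher, as did 11% of all genes. The 95% intervals had a median width of 0.78 on the log2 scale, which limits how small a change could be seen.

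Glb1 (β-galactosidase, chr9:114401078-114474379, plus strand) had the lowest adjusted p of the members in that comparison. It was at 199, 357 and 110 CPM in WT, 33.6, 50.8 and 78.5 in LysM-DKO and 172 and 228 in ABCG1KO. The LysM-DKO libraries lay below all 5 others, while WT and ABCG1KO overlapped. The log2 fold change was -2.03 (95% interval -3.10 to -0.97, adjusted p = 0.27), a level 24.5% of WT, with WT libraries that themselves differed 3.24-fold. Its exons overlap those of Tmppe on the same strand over 5.49% of their length. Reads there that fit both genes may have been set aside as ambiguous and counted for neither. Ctsl was at 4528, 8824 and 5455 CPM in WT, 2612, 3881 and 2825 in LysM-DKO and 2576 and 3258 in ABCG1KO. Both other groups lay wholly below WT, and the log2 fold change in LysM-DKO was -1.01 (interval -1.67 to -0.36, adjusted p = 0.342). Gm2a was at 777, 939 and 515 CPM in WT, 450, 388 and 432 in LysM-DKO and 422 and 429 in ABCG1KO. It had a log2 fold change of -0.81 in LysM-DKO (interval -1.31 to -0.32, adjusted p = 0.327), and its levels in LysM-DKO and ABCG1KO overlapped.

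In LysM-DKO the estimates of Smpd1, Atp6v1a, Gla and Ctsb against WT lay near 0. For Smpd1 the log2 fold change was 0.00 (95% interval -0.38 to 0.38), for Atp6v1a 0.00 (-0.50 to 0.49) and for Gla -0.05 (-0.46 to 0.36). Ctsb was at -0.10 (-0.57 to 0.37). The intervals of Atp6v0d2 and Ctsk were wider and allow large differences: -0.16 (-1.18 to 0.86) and -0.82 (-1.73 to 0.08). The changes of these genes against WT in both groups share the WT libraries, and the direct comparison of the groups follows.

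Between LysM-DKO and ABCG1KO, 8 members differed, 7 higher and 1 lower in LysM-DKO. That is 17.4% of the members, where 13.4% of all genes differed, 7.76% higher and 5.64% lower. Atp6v0d2 and Ctsk were higher in LysM-DKO by log2 fold changes of 2.94 (SE 0.56, adjusted p = 0.0146) and 2.85 (SE 0.49, adjusted p = 0.0103). The others that were higher had smaller differences: Atp6v0a1 1.22, Gla 0.91, Smpd1 0.78, Tpp1 0.73 and Atp6ap1 0.61. Glb1 was the member lower in LysM-DKO, at -1.88 (SE 0.49, adjusted p = 0.0435), or 27.2% of the ABCG1KO level. The libraries did not overlap for 18 members that lay higher and 7 that lay lower, 54.3% of the 46, where 25.6% of all genes lay higher and 22.6% lower. The median log2 difference over the 46 was 0.14 against 0.03 for all genes. Ctss and Gusb, which fell in ABCG1KO against WT, had values of 0.42 and 0.23 here (95% intervals -0.07 to 0.92 and -0.21 to 0.66) and were not called. Gm2a was at -0.01 (interval -0.56 to 0.54). Leaving out a library lowered the count to between 1 and 6: it was 1 without ABCG1KO replicate 1 (Atp6v0d2), 2 without LysM-DKO replicate 1, 3 without LysM-DKO replicate 2 or WT replicate 2, and 5 without WT replicate 1, WT replicate 3 or LysM-DKO replicate 3. With only the libraries of both groups in the fit, Ctsk and Glb1 were called. The counts over all genes for these settings are in the closing section.

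Another 116 genes of the lysosome that are not members were listed, also with earlier results known, of which 107 passed the filter. In ABCG1KO against WT, 33 of the 107 changed (30.8%), 24 lower and 9 higher. That compares with 16% of all genes, 8.83% lower and 7.21% higher. The median log2 fold change of the 107 was -0.25. By role, 8 of 21 further membrane proteins fell and 3 rose, 5 of 17 glycosidases and sulfatases fell and 2 rose, and none of the 6 genes of the mannose-6-phosphate sorting route was called. With library sizes alone the split was 12 lower and 13 higher, with the median of all genes at 0.25 in place of 0.01. Whenever a library was left out, fewer of all genes were called too, with the range in the closing section. Without ABCG1KO replicate 1, 8 of the 107 were called, and without ABCG1KO replicate 2 or any 1 WT library 19 to 21.

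The lowest adjusted p belonged to Mcoln3, a calcium channel of endosomes related to the member Mcoln1. It was at 41.7, 16.95 and 31.0 CPM in WT, 23.0, 9.65 and 13.3 in LysM-DKO and 0.220 and 0.236 in ABCG1KO. Both ABCG1KO libraries held 7 and 10 counts, and the log2 fold change was -7.01 (SE 0.65, adjusted p = 0.00039), where Mcoln1 had -0.07. Mfsd1, a transporter of the lysosomal membrane, was at 239, 239 and 247 CPM in WT, 288, 293 and 249 in LysM-DKO and 475 and 552 in ABCG1KO. It rose by 1.09 in ABCG1KO (SE 0.14, adjusted p = 0.00224), with all groups apart. The aspartic proteases moved in different directions: Ctse was at 12.8 and 19.1 CPM in ABCG1KO against 0.498, 0.994 and 0.673 in WT and rose by 4.46, whereas Napsa fell by 1.77. The sulfatase gene Galns fell by 1.46, Dnase2a, which cuts engulfed DNA, by 1.21, and the tetraspanin gene Cd63 by 2.19, with 11.1% of its 50-base words shared with other genes. Lipa, which frees cholesterol from its esters, had log2 fold changes of -0.79 in ABCG1KO (adjusted p = 0.11) and 0.02 in LysM-DKO (adjusted p = 0.985) and was not called.

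In LysM-DKO against WT, edgeR called none of the 107, and DESeq2 called 6. At an unadjusted p under 0.05 in edgeR stood 21 of the 107 and 1611 of the 13821 genes tested. The median log2 fold change of the 107 was -0.14, where that of all genes was 0.02. Between LysM-DKO and ABCG1KO, 23 of the 107 differed (21.5%), where 13.4% of all genes did. In LysM-DKO, 14 were higher and 9 lower, against 7.76% and 5.64% of all genes. Mcoln3 was higher there by 6.05, Cd63 by 1.86, Napsa by 1.68 and Galns by 1.09, and Ctse was lower, at -3.34. Mfsd1 was also lower in LysM-DKO than in ABCG1KO, at -0.89.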

How the data were processed

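The deposited values were raw read counts per gene symbol, 1 file per library, in the layout of htseq-count. Per the submitters' processing notes, STAR 2.7.9a, TopHat, HTSeq 0.11.2, DESeq2 1.30.1, limma and build mm10 were used by the authors; which aligner made these files, the annotation and the strand setting are not given in the sources used here. Where strand is not known, the 11 members whose exons overlap another counted gene (Ctsa, Ctsb, Ctsz, Hexa, Glb1, Arsa, Grn, Ppt1, Lamp1, Cln3 and Atp6v1h) are less certain. No member shared more than 1.20% of its 50-base words with genes elsewhere. The 5 special lines of each file (7.85% to 21.4% of counted reads) entered neither the library sizes nor the tests.

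Counts were analysed in R 4.3.3 with edgeR 4.0.16: filterByExpr, TMM factors and 1 robust quasi-likelihood fit over all 8 libraries with a term per group, so that ABCG1KO shared the estimate of the spread. Genes were called at a Benjamini-Hochberg adjusted p under 0.05 over 13821 genes. Standard errors (SE) are the log2 fold change divided by the root of F. CPM are counts per 1000000 of the scaled library size, given ± SD over libraries. A count of 0 allows up to 3 counts, or 0.0716 to 0.101 CPM, for counting error only. DESeq2 1.42.0 and the other alternatives are in the closing section. Figures were drawn with matplotlib 3.10.9.

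The members, the other lysosomal genes and the marker lists were chosen with earlier results of these data known. Every member could be named, with values in each library for members called in any comparison, for the most abundant of each role and for Tfeb and Tfe3; of the other lysosomal genes, the 8 with the lowest adjusted p, with Lipa; other genes that the rule names are not reported here. Gm2a, Ctsl, Ctsc, Arsb, Atp6v0d1 and Atp6v1a, given with values in libraries, and Tcirg1 and Atp6v1f, were chosen after their values were seen. Replicate numbers were not used to pair libraries, since deviations of same-numbered WT and LysM-DKO libraries correlated at 0.0289, 0.489 and -0.0531. Exon lengths and shared words came from GENCODE M21, and coordinates and promoters from RefSeq tables of GRCm38.p6, the assembly that mm10 names.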

Additional observations from a re-analysis of the deposited data

How the results depend on the processing

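No called member changed sign in any of the 16 alternatives run. Members near 0 did: with library sizes alone, 18 members in LysM-DKO and 16 in ABCG1KO were above 0 against WT, where TMM factors gave 7 and 8, and without LysM-DKO replicate 3, 11 were in LysM-DKO. In LysM-DKO against WT, where 5 genes, 0 members and 0 other lysosomal genes were called, the gene count was 3 with at least 10 counts in every library, 278 with DESeq2, 8 with the 2 groups alone, 0 with the replicate number as a block and 3 without robust estimation (an alternative chosen after seeing the data), and 0 to 8 with 1 library left out. DESeq2 called 4 members and 6 other lysosomal genes there. In ABCG1KO against WT (2216 genes, 13 members, 33 other lysosomal genes), DESeq2 called 21 members; the block gave 1456 genes and 8 members, and leaving out 1 library gave 853 to 2090 genes, 2 to 11 members and 8 to 29 other lysosomal genes. In LysM-DKO against ABCG1KO (1853, 8 and 23), DESeq2 called 2947, 14 and 35, the 2 groups alone 948, 2 and 11, the block 1024, 3 and 15, and leaving out 1 library 561 to 1960, 1 to 6 and 5 to 26. The cause of these shifts was not tested. The count of DESeq2 over all genes in ABCG1KO against WT is not given here. Its 21 members there thus have no share of all genes beside them. The replicate numbers share only a number across groups, and not every library correlated best with its own number. All members held counts far above 3 in every library.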
